A study of Mus musculus with 30 samples.

Results

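Clathrin-mediated endocytosis is the route by which cells take receptors and their cargo from the plasma membrane. FCHO proteins and other pioneers mark the site, the AP-2 adaptor joins membrane, cargo and clathrin, curved-membrane and actin proteins shape the pit, dynamin cuts it off, and auxilin-type kinases and synaptojanins take the coat apart. The vesicle then fuses with the early endosome, which the small GTPase Rab5 organises, and receptors return to the surface through Rab4 and EHD proteins. Bin1 (amphiphysin II) is a protein of curved membranes with binding partners in this machinery, and in microglia, the resident macrophages of the brain, the pathway serves the uptake of material from the tissue. The 42 genes described here are a list of clathrin, AP-2, dynamin, F-BAR, sorting nexin and early endosome genes that act with Bin1, and no measured value enters the rule for membership. They are 42 of the 47643 genes in the table, and all 42 were among the 16897 genes tested. The list was chosen with earlier results of these data known.

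The data are RNA levels of microglia sorted by FACS (CD11b+ CD45med) from the brains of 3 month-old mice. WT mice carried Bin1 wt/flox without Cre (5 males, 4 females), Het mice Bin1 wt/flox::Cx3Cr1-Cre+ (6 males, 5 females) and Homo mice Bin1 flox/flox::Cx3Cr1-Cre+ (5 males, 5 females), so a floxed Bin1 allele is common to all groups. Cre is made from the Cx3cr1 locus, which is active in microglia and in other macrophages, and every mouse with Cre had also lost at least 1 Bin1 copy, so effects of the 2 cannot be told apart. The comparisons ask whether the levels of these genes differ once Bin1 is lost from microglia, and whether they do so alike in both sexes. The study names its WT mice littermates of the others, but the labels do not say which mice shared a litter, and each library is counted as 1 mouse.

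Bin1 itself was at 230.3 to 289.5 FPKM in male WT, 51.8 to 157 in male Het and 39.9 to 55.6 in male Homo mice, and at 244 to 271, 42.7 to 164 and 39.5 to 43.3 in the female groups. FPKM (fragments per kilobase of transcript, relative to all mapped fragments) take length and depth into account, so levels can be set side by side between genes. The libraries labelled Het-M-0199 and Het-F-0206 had Bin1 at the Homo level, and Cx3cr1 was at 13.9 FPKM in Het-F-0206 and at 610 or more in every other library. Mean Cx3cr1 in males was 2043 FPKM in WT, 933 in Het and 928 in Homo mice, and in females 2061, 917 and 1168. Effects of this lower Cx3cr1 and of the loss of Bin1 cannot be told apart. Depth relative to the median library was 0.669 to 1.41. The 10 microglia markers summed to between 17390 and 26200 FPKM, and the 8 neuron markers to between 2.44 and 22.4. The 6 border macrophage markers summed to 15.5 to 43.6 FPKM in male WT (median 37.5) and 11.1 to 25.6 in male Homo mice (median 20.1), with 6 of 6 lower in Homo. The 8 neutrophil markers had medians of 72.2 and 0.575 FPKM in these groups (7 of 7 tested lower), the 5 choroid plexus markers 75.4 and 11.9 (5 of 5 lower), and the 5 nuclear lncRNAs, among them Malat1 and Neat1, summed to 2946 to 5775 and 5417 to 11630. The part of these differences in the comparisons of the members was not tested. Mouse numbers below 150 were carried by 3 of 5 male Homo, 2 of 6 male Het, 1 of 4 female WT and 0 of 5 male WT mice. In such bulk samples, fewer cells of a type and less RNA per cell cannot be told apart.

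The promoters of 5 members are shown because 2 of these genes, Ap2m1 and Fcho2, passed the test between male Homo and WT mice and the other 3, the Rab5 genes, were called lower together in 1 range of mouse numbers. Each window spans the start of the gene in RefSeq (GRCm38.p6), 5′ to 3′ on the strand of the gene. Capitals mark the GC box GGGCGG and the CCAAT box, read on either strand.
Ap2m1 promoter (chr16:20535230-20535529, plus strand): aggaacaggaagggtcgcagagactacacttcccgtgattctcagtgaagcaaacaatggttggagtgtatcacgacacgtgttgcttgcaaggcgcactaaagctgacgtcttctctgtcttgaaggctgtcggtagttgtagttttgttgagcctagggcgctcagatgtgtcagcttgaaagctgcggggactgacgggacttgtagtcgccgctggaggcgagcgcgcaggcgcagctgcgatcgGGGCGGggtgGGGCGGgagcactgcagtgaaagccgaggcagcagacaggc
Fcho2 promoter (chr13:98815400-98815699, minus strand): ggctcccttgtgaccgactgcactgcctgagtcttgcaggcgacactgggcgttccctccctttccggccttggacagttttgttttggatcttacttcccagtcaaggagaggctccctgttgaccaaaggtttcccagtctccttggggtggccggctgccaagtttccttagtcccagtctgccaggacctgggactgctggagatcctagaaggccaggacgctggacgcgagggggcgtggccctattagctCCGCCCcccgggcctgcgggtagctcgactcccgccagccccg
Rab5a promoter (chr17:53478984-53479283, plus strand): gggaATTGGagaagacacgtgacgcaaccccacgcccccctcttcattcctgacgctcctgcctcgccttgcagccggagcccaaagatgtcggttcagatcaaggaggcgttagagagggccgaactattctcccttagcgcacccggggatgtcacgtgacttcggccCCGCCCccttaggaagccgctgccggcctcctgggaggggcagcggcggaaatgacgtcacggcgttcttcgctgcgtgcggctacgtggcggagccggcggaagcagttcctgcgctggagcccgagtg
Rab5b promoter (chr10:128696219-128696518, minus strand): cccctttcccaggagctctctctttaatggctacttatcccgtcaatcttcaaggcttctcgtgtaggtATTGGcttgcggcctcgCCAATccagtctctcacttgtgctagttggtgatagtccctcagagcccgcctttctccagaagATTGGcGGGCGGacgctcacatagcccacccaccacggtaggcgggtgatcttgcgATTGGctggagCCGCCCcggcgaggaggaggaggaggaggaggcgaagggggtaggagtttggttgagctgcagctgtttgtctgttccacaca
Rab5c promoter (chr11:100738166-100738465, minus strand): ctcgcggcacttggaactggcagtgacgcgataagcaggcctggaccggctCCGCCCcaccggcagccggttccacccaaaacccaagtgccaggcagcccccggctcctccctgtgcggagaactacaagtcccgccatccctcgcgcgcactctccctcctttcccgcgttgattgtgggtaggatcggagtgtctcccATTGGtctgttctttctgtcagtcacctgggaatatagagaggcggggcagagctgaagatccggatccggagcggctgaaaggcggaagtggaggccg
All 5 windows hold a GC box, and the CCAAT letters are found in those of the Rab5 genes but in neither of the other windows. RefSeq windows were matched for 36 of the 42 members (46 windows, since some genes have several). Rab4a, which also passed the test between male Homo and WT mice, was among those without a window. GGGCGG was present on either strand in 71.7% of the member windows and in 35.7% of all 32851 windows, and CCAAT in 34.8% and 37.4%. The TATA box TATAAA was in 0 of the 46 windows and in 13.6% of all, and the cyclic AMP element TGACGTCA in 6.52% and 1.79%. The median GC content was 62.8% in member windows and 52.7% in all windows, with a median of 23 and 7 CpG sites, so the difference in GGGCGG stands beside a difference in base composition. The letters describe the windows and are not sites of binding.

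Across all 30 libraries the machinery was present at levels from 0.471 FPKM for Dnm3 to 153 for Clta, and 36 of the 42 members had a mean of at least 1 FPKM. Of the clathrin genes, the light chain Clta was at 153 ± 19.6 FPKM (SD, n = 30) and the heavy chain Cltc at 139 ± 24.4 (SD, n = 30), levels that overlap widely. The second light chain, Cltb, was at 14.3 ± 2.71 FPKM (SD, n = 30) and made up 8.56% of the light chain level.

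AP-2 is built of an alpha, a beta, a mu and a sigma subunit. The mu subunit Ap2m1, which binds the sorting signals of cargo, was at 126.5 ± 10.6 FPKM (SD, n = 30), 57.4% of the summed AP-2 level, and varied least among the AP-2 genes, with a coefficient of variation of 8.37%. The sigma subunit Ap2s1 followed at 37.4 ± 7.41 FPKM, and the alpha subunits Ap2a2 and Ap2a1 and the beta subunit Ap2b1 were between 16.8 and 22.9. Ap2a2 was above Ap2a1 in 30 of 30 libraries, whereas Ap2b1 and Ap2a1, at 16.9 ± 1.99 and 16.8 ± 2.07 FPKM, did not differ beyond their spread.

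Most families were carried by 1 gene. Fcho2 made up 98.7% of the FCHO level, Itsn2 91.7% of the intersectins, Dnm2 99.1% of the dynamins, Snx18 85.4% of Snx9 and Snx18, Fnbp1 85.7% of Fnbp1 and Trip10, Synj1 87.6% of the synaptojanins, Gak 92.2% of Gak and Aak1, and Ehd4 98.8% of Ehd1 and Ehd4, and each was the higher gene in 30 of 30 libraries. Dnm1 and Dnm3, the dynamins known from neurons, were at 0.619 ± 0.367 and 0.471 ± 0.273 FPKM (SD, n = 30), beside 123 ± 12.98 for the ubiquitous Dnm2. Dnm1 was highest in Het-M-0108, at 1.61 FPKM, and Homo-F-0238, at 1.53 FPKM, the libraries with the highest neuron marker sums, 22.4 and 21.6 FPKM. Hip1 and Hip1r, which tie the coat to actin, were both low, at 0.789 ± 0.266 and 0.549 ± 0.195 FPKM (SD, n = 30), and Hip1 was the higher in only 19 of 30 libraries.

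Among the early endosome genes the highest was Rin2, an exchange factor for Rab5, at 104 ± 17.3 FPKM (SD, n = 30). Rab5a made up 60.8% of the Rab5 level, with Rab5b at 30.4% and Rab5c at 8.84%, and this order held for the first place in all 30 libraries. The tether Eea1, which Rab5 recruits, was at 2.55 ± 0.438 FPKM and the recycling GTPase Rab4a at 3.22 ± 1.14 (SD, n = 30).

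**Figure D1:**
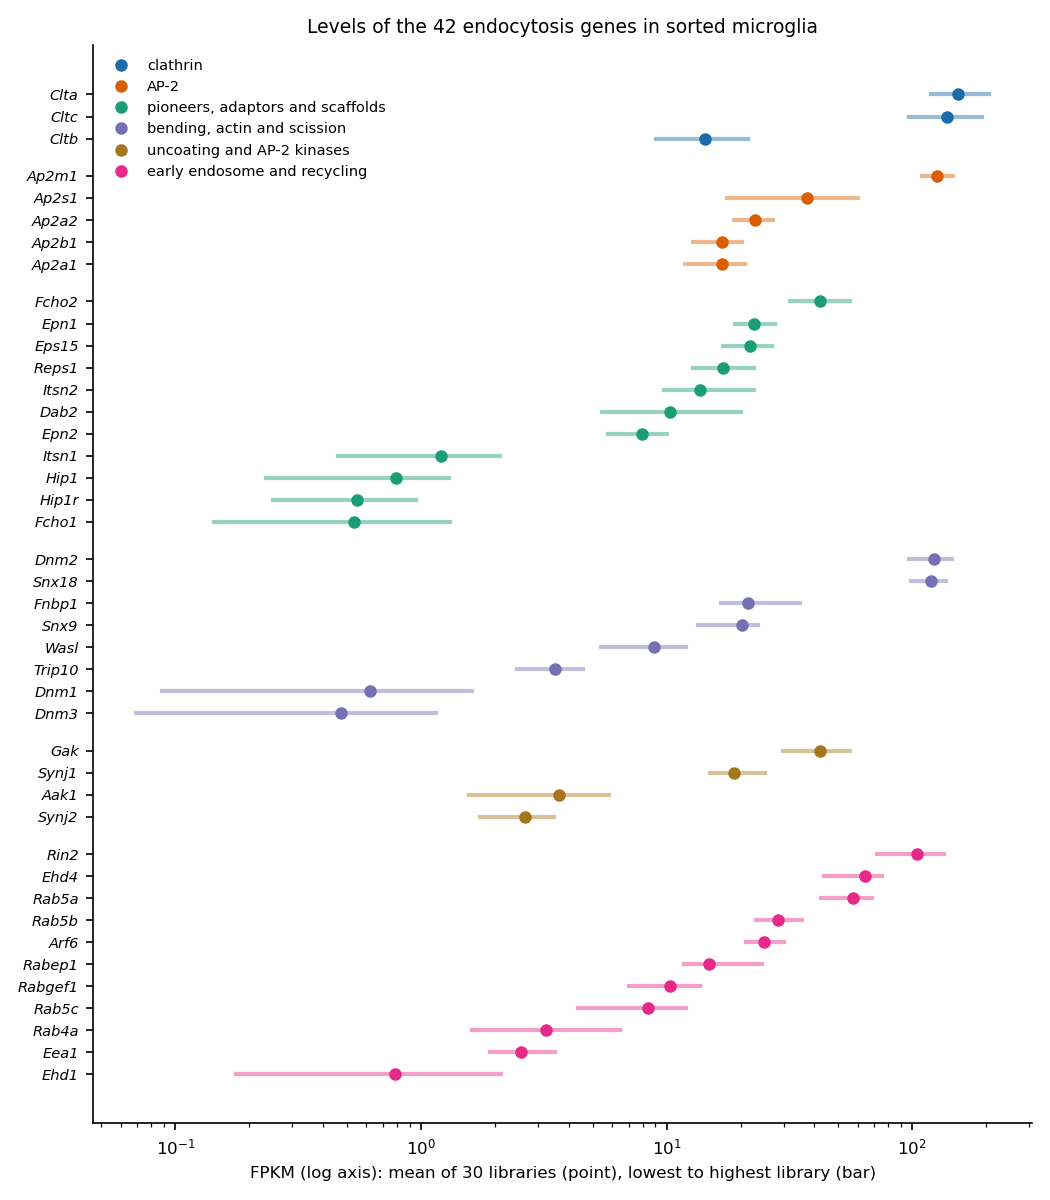
Mean FPKM of each of the 42 genes over the 30 libraries (points) on a log axis, with bars from the lowest to the highest library and colours for the 6 role groups. Clta, Cltc, Ap2m1, Dnm2, Snx18 and Rin2 have means above 100 FPKM, and Dnm1, Dnm3, Fcho1, Hip1, Hip1r and Ehd1 means below 1.

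Between male Homo and WT mice, the AP-2 subunit Ap2m1 and the recycling GTPase Rab4a fell and the pit pioneer Fcho2 rose, and the other 39 members did not pass the test. For each test, libraries were brought to 1 scale (median of ratios), values were taken as log2(FPKM + 0.1), limma fitted the 6 groups together, and a gene counted as called where its p, adjusted by Benjamini-Hochberg over all genes tested, was below 0.05. Of all genes tested, 2.82% were called, 1.55% higher and 1.27% lower, beside 7.14% of the members, 1 higher and 2 lower. At an unadjusted p below 0.05, 8 members passed, or 19%, beside 22.5% of all genes. Estimates lay below 0 for 30 of 42 members, with a median of -0.15, while 53.6% of all genes lay above 0, with a median of 0.03. The shift was not particular to the members. Of the 10 microglia markers, which include Cx3cr1, 9 lay below 0, with a median of -0.25. The 42 genes share the same libraries and are not independent. For 26 members the 95% interval of the fold lay within 1.5-fold either way, and the 16 whose interval was wider include 7 of the lowest, Fcho1, Hip1, Hip1r, Itsn1, Dnm1, Dnm3 and Ehd1.

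Ap2m1 (chromosome 16, 20535478 to 20544909 on GRCm38) was at 125, 125, 129, 130.0 and 133 FPKM in male WT and at 109.2, 111, 111, 112 and 115 in male Homo mice. Every Homo library was below every WT library, a pattern without overlap that 1.37% of all genes showed in the lower direction. On the log2 scale the Ap2m1 level fell by 0.28 (standard error 0.07, unadjusted p = 0.000343, adjusted p = 0.0288, limma with Benjamini-Hochberg adjustment). Male Het mice were at 117 to 147 (median 126, n = 6) FPKM, also above every male Homo library (0.101% of all genes lay without overlap in this direction), and the difference between Homo and Het was -0.21 (standard error 0.07, unadjusted p = 0.00396, adjusted p = 0.998). The 2 male Homo mice with late numbers, at 109.2 and 111 FPKM, were as low as the 3 with early numbers before scaling. On the scaled log2 values that were tested, these 2 (6.81 and 6.79) lay above the 3 early ones (6.66 to 6.76). The part of the number range in the difference was not tested. Once the number range entered as a covariate, the Ap2m1 estimate was -0.25 (adjusted p = 0.225), and among late numbered mice alone it was -0.22 (adjusted p = 0.547). The call was also lost without scaling (-0.20, adjusted p = 0.0960) and in a fit of only the 2 groups (-0.29, adjusted p = 0.1275). It was lost without WT-M-0176, WT-M-0177, WT-M-0178, Homo-M-0093, Homo-M-0097 or Homo-M-0109 as well, at adjusted p from 0.0553 to 0.0911.

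Fcho2 (chromosome 13, 98723403 to 98815449), which bends the membrane at new pits and brings in AP-2, was at 31.7, 33.6, 36.7, 42.02 and 42.5 FPKM in male WT and at 44.5, 49.2, 50.3, 52.4 and 52.5 in male Homo mice. All Homo libraries were above all WT libraries, as for 2.56% of all genes in the higher direction. It rose by 0.34 on the log2 scale (standard error 0.10, unadjusted p = 0.00137, adjusted p = 0.0492, limma with Benjamini-Hochberg adjustment). The male Het libraries, 32.97 to 55.7 (median 41.6, n = 6), overlapped both. The late numbered Homo mice were at 44.5 and 52.4 FPKM. The call was lost with the number range as a covariate (0.31, adjusted p = 0.330) and without WT-M-0176, WT-M-0177, WT-M-0258, Homo-M-0093, Homo-M-0097, Homo-M-0109 or Homo-M-0190, at adjusted p from 0.0761 to 0.123.

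Rab4a (chromosome 8, 123805985 to 123835287) was the only member whose change also passed a 1.5-fold threshold, 1 of 42 (2.38%) beside 1.81% of all genes. It was at 1.82, 4.07, 4.57, 5.96 and 6.48 FPKM in male WT and at 1.70, 2.23, 2.43, 2.60 and 2.75 in male Homo mice. The groups overlapped through WT-M-0202, the lowest WT library, while the other 4 WT libraries were above all Homo libraries. The fall of Rab4a amounted to -0.92 in log2 (standard error 0.26, unadjusted p = 0.00139, adjusted p = 0.0495, limma with Benjamini-Hochberg adjustment). The estimate was -0.80 with the number range as a covariate (adjusted p = 0.374) and -1.22 without WT-M-0202 (adjusted p = 0.00312). Without WT-M-0176, WT-M-0177, WT-M-0178, WT-M-0258, Homo-M-0093, Homo-M-0097 or Homo-M-0109 the call was lost, at adjusted p from 0.0676 to 0.158, and without Het-M-0199 and Het-F-0206, an alternative chosen after the data were seen, adjusted p was 0.0536.

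**Figure D2:**
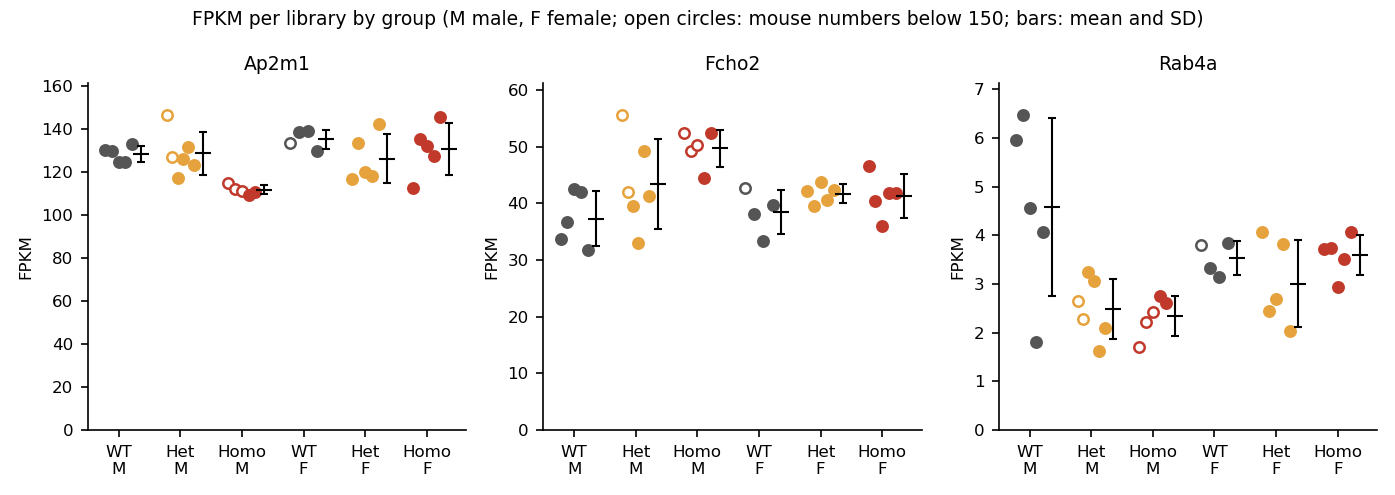
FPKM of Ap2m1, Fcho2 and Rab4a in each library of the 6 groups (M male, F female), with open circles for mouse numbers below 150 and bars for the mean and SD. Male Homo libraries lie below all male WT libraries for Ap2m1 (109.2 to 115 against 125 to 133) and above them for Fcho2 (44.5 to 52.5 against 31.7 to 42.5), and WT-M-0202 lies within the Homo range for Rab4a.

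The other members with the smallest p in male Homo mice did not pass the adjustment. Ap2s1 was at 32.2, 32.3, 41.8, 45.4 and 60.3 FPKM in male WT and 17.6, 27.1, 33.7, 35.9 and 43.1 in male Homo mice, with wide overlap (log2 difference -0.53, standard error 0.19, unadjusted p = 0.00865, adjusted p = 0.1004). Without Homo-M-0189 its difference was -0.69 and was called (adjusted p = 0.0274). Cltb was at 12.7, 14.0, 14.6, 15.0 and 19.0 FPKM in WT and 9.08, 10.98, 12.2, 12.8 and 14.0 in Homo males (-0.43, standard error 0.16, unadjusted p = 0.0138, adjusted p = 0.121). The groups overlapped in both genes.

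Trip10 (CIP4), an F-BAR protein that joins curved membrane to actin assembly, was at 3.51, 3.62, 3.64, 4.27 and 4.36 FPKM in male WT and 2.46, 2.71, 2.97, 3.22 and 4.41 in male Homo mice, where Homo-M-0093 was above all WT libraries and the other 4 below them (log2 difference -0.40, standard error 0.14, unadjusted p = 0.00871, adjusted p = 0.1004). On the scaled log2 values that were tested, Homo-M-0093 (2.03) lay within the male WT range of Trip10 (1.88 to 2.18). Trip10 was called under array weights alone (-0.48, adjusted p = 0.0380). Hip1 was at 0.867, 1.04, 1.13, 1.14 and 1.30 FPKM in WT and 0.235, 0.645, 0.788, 0.827 and 0.938 in Homo males (-0.77, standard error 0.31, unadjusted p = 0.0175, adjusted p = 0.135). Before scaling, only Homo-M-0093 of the Homo libraries lay above the lowest WT library. On the scaled log2 values that were tested, Hip1 did not overlap (-1.55 to -0.07 in Homo, 0.02 to 0.46 in WT males). At such levels the added 0.1 understates the change. Epn1, an epsin that bends membrane and binds ubiquitin on cargo, was at 20.6, 24.8, 24.9, 27.5 and 27.6 FPKM in WT and 20.3, 21.1, 21.7, 22.3 and 24.6 in Homo males (-0.27, standard error 0.11, unadjusted p = 0.0176, adjusted p = 0.135), and was called without WT-M-0202 (-0.34, adjusted p = 0.0487).

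By role, estimates in male Homo mice lay below 0 for 3 of 3 clathrin genes, 4 of 5 AP-2 genes, 8 of 11 pioneers, adaptors and scaffolds, 6 of 8 genes of bending, actin and scission, 1 of 4 genes of uncoating and AP-2 kinases and 8 of 11 early endosome and recycling genes. The highest gene of each role overlapped between the groups except Ap2m1 and Fcho2. Clta was at 124, 127, 158, 169 and 205.99 FPKM in WT and 119.7, 143, 143, 155 and 169 in Homo males (-0.17, 95% interval -0.43 to 0.09), and its estimate turned to 0.07 among late numbered mice alone. Dnm2, which cuts the pit from the membrane, was at 108.7, 109.3, 121.98, 139.5 and 145 FPKM and 97.2, 106, 112, 120.2 and 121.7 (-0.24, -0.49 to 0.01). Neither interval excluded 0.

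Gak, the kinase and auxilin-type cofactor that strips clathrin from vesicles, was at 29.7, 39.4, 41.2, 41.8 and 49.4 FPKM in male WT and 36.4, 41.4, 42.4, 50.2 and 55.6 in male Homo mice (log2 difference 0.08, 95% interval -0.14 to 0.31). Rin2 was at 77.4, 88.6, 102, 104 and 116 FPKM and 98.7, 101, 108.8, 121 and 124 (0.10, -0.25 to 0.46). Differences within these intervals were not detectable with 5 libraries a group.

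**Figure D3:**
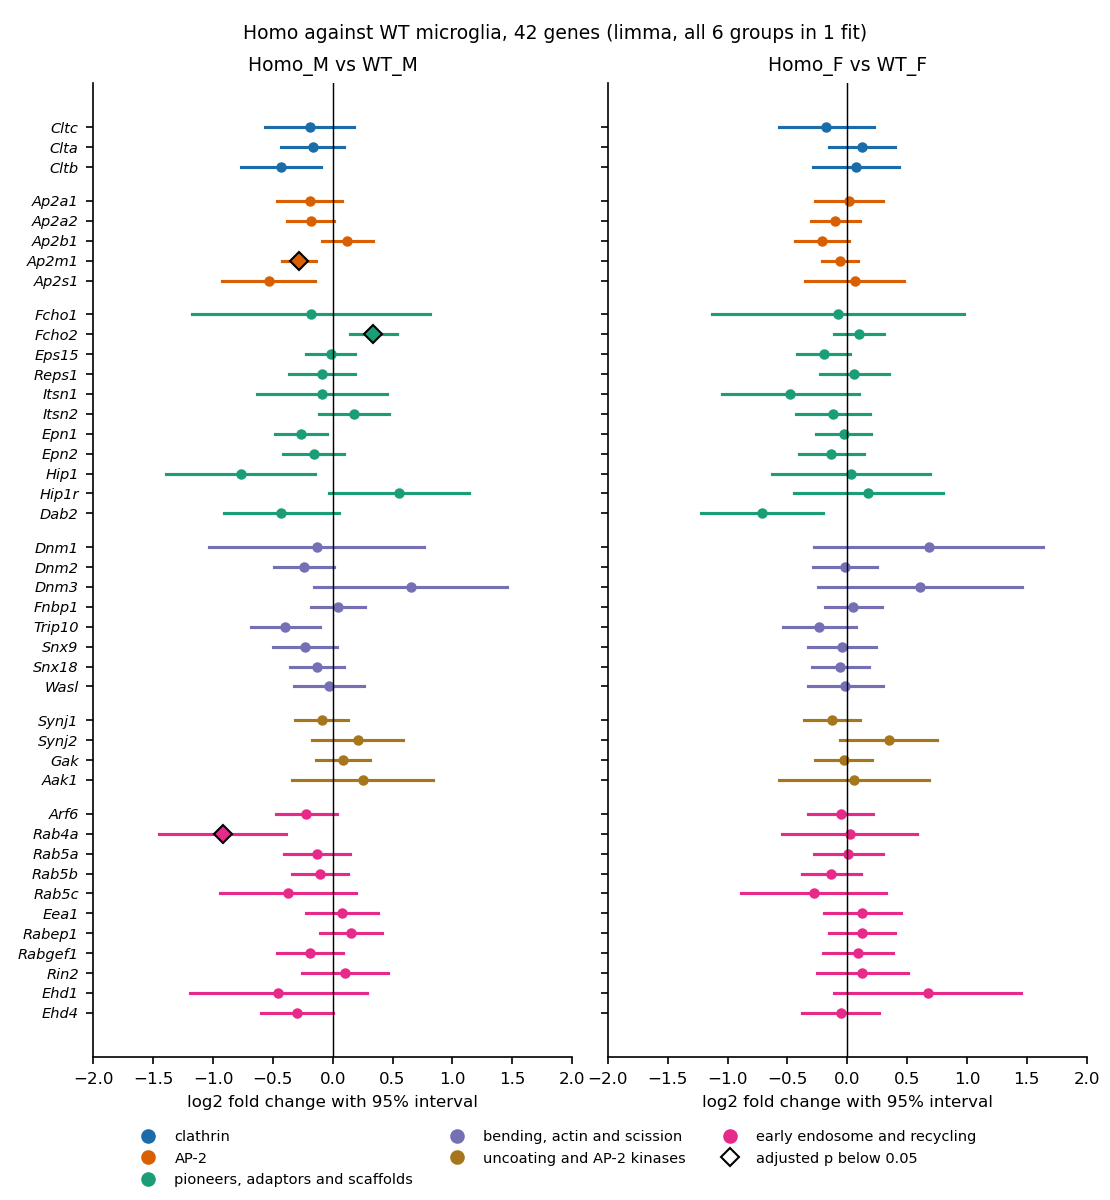
Log2 fold change of each of the 42 genes in Homo against WT mice with its 95% interval, males on the left and females on the right, from the limma fit of all 6 groups. Diamonds mark an adjusted p below 0.05 and are found for Ap2m1, Fcho2 and Rab4a in males and for 0 members in females.

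In male Het mice, which lose 1 copy of Bin1, 0 of 42 members were called, beside 0.172% of all genes. Unadjusted p was below 0.05 for 4 members, or 9.52%, beside 14.2% of all genes. Of 42 estimates 30 lay below 0, beside 51.9% of all genes above 0. Among the 10 microglia markers, which include Cx3cr1, 10 lay below 0, with a median of -0.23. The same 5 male WT mice are the controls here and in the comparison with Homo mice. Rab4a was at 1.62 to 3.25 (median 2.47, n = 6) FPKM, with all libraries but WT-M-0202 of the WT mice above that range (-0.84, standard error 0.25, unadjusted p = 0.00209, adjusted p = 0.163), and it was called without WT-M-0202 (-1.14, adjusted p = 0.0106). Trip10 was at 2.56 to 3.75 (median 3.18, n = 6) (-0.38, standard error 0.13, unadjusted p = 0.00902, adjusted p = 0.254), where the WT libraries began at 3.51. Epn1 was at 19.4 to 24.3 (median 21.98, n = 6) (-0.26, standard error 0.10, unadjusted p = 0.0139, adjusted p = 0.277). Ap2a2, an alpha subunit of AP-2, was at 20.2 to 23.3 (median 21.4, n = 6) in Het and 21.6, 21.8, 22.5, 25.7 and 27.1 in WT males (-0.19, standard error 0.09, unadjusted p = 0.0420, adjusted p = 0.341). All 4 overlapped between the groups before scaling. On the scaled log2 values that were tested, Trip10 did not overlap (1.43 to 1.83 in Het, 1.88 to 2.18 in WT males).

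In females, 0 of 42 members were called in Homo mice, beside 0.0710% of all genes, and 0 of 42 in Het mice, beside 0.136%. Without adjustment, 1 and 2 members had p below 0.05, or 2.38% and 4.76%, beside 3.49% and 3.95% of all genes. Estimates lay below 0 for 22 of 42 members in Homo and 23 of 42 in Het females, while 50.8% and 50.2% of all genes lay above 0, and for 30 members in each comparison the 95% interval lay within 1.5-fold. The 3 genes called in males had female Homo estimates of -0.06 for Ap2m1 (95% interval -0.21 to 0.09), 0.10 for Fcho2 (-0.11 to 0.31) and 0.02 for Rab4a (-0.54 to 0.59). Rab4a was at 3.14, 3.32, 3.80 and 3.85 FPKM in female WT and 2.95, 3.51, 3.72, 3.74 and 4.07 in female Homo mice, so that the WT range lay within the Homo range. Ap2m1 was at 129.7, 134, 138 and 139 and 113, 127, 132, 135 and 145, and Fcho2 at 33.4, 38.1, 39.8 and 42.7 and 35.9, 40.4, 41.8, 41.9 and 46.6.

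Dab2 and Ehd1 did not overlap with WT in females of either genotype. Dab2, an adaptor for receptors of the LDL receptor family, was at 10.8, 12.6, 14.5 and 15.6 FPKM in female WT, 7.16, 7.61, 9.43, 10.03 and 10.7 in Het and 5.48, 7.56, 8.87, 9.49 and 9.74 in Homo mice. Every Het and Homo library was below every WT library, as for 0.633% and 0.663% of all genes. The log2 difference was -0.71 in Homo (standard error 0.25, unadjusted p = 0.00762, adjusted p = 1) and -0.58 in Het females (standard error 0.25, unadjusted p = 0.0273, adjusted p = 1), limma with Benjamini-Hochberg adjustment, so neither passed. The border macrophage marker sum had medians of 22.8 FPKM in WT (15.3 to 28.8), 13.4 in Het (10.6 to 32.2) and 14.7 in Homo females (10.7 to 33.4), with 6 of 6 markers lower in Het and 5 of 6 in Homo. The choroid plexus sum had medians of 12.5 (0.602 to 126), 0.854 (0.0439 to 1.92) and 1.11 FPKM (0.157 to 2.74), with 5 of 5 markers lower in both, and the neutrophil sum 42.7 (6.80 to 158.5), 23.6 (0 to 88.2) and 11.4 FPKM (0.219 to 72.05), with 6 of 7 tested markers lower in both. WT-F-0192 and WT-F-0200, the female WT libraries with the most Dab2, also had the highest sums of these markers in that group. The sums were 28.8 and 26.6 FPKM for border macrophages, 126 and 24.2 for the choroid plexus and 158.5 and 57.4 for neutrophils. In WT-F-0122, with Dab2 at 12.6 FPKM, they were 15.3, 0.68 and 28.0. The part of these markers in the Dab2 values was not tested.

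In males the Dab2 estimates had the same sign with overlap. Dab2 was at 5.83, 10.2, 12.2, 15.8 and 20.0 FPKM in male WT, 7.55 to 13.5 (median 8.89, n = 6) in Het and 6.72, 6.98, 10.1, 11.1 and 13.03 in Homo mice. The log2 difference was -0.43 in Homo (95% interval -0.91 to 0.05) and -0.39 in Het males (-0.85 to 0.07), and the interaction with sex did not pass for either genotype (adjusted p = 0.797 and 0.912 by limma with Benjamini-Hochberg adjustment).

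Ehd1, an EHD protein of recycling endosomes and low in these cells, was at 0.382, 0.5995, 0.631 and 0.647 FPKM in female WT, 0.843, 0.922, 0.999, 1.74 and 2.11 in Het and 0.722, 0.803, 0.985, 1.08 and 1.21 in Homo mice. All Het and Homo libraries were above all WT libraries, as for 1.58% and 1.65% of all genes in the higher direction. The log2 difference was 1.03 in Het (standard error 0.38, unadjusted p = 0.0117, adjusted p = 0.832) and 0.67 in Homo females (standard error 0.38, unadjusted p = 0.0894, adjusted p = 1). In males its estimate in Homo mice was -0.45 (95% interval -1.19 to 0.28). The 4 female WT mice are shared by both comparisons.

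**Figure D4:**
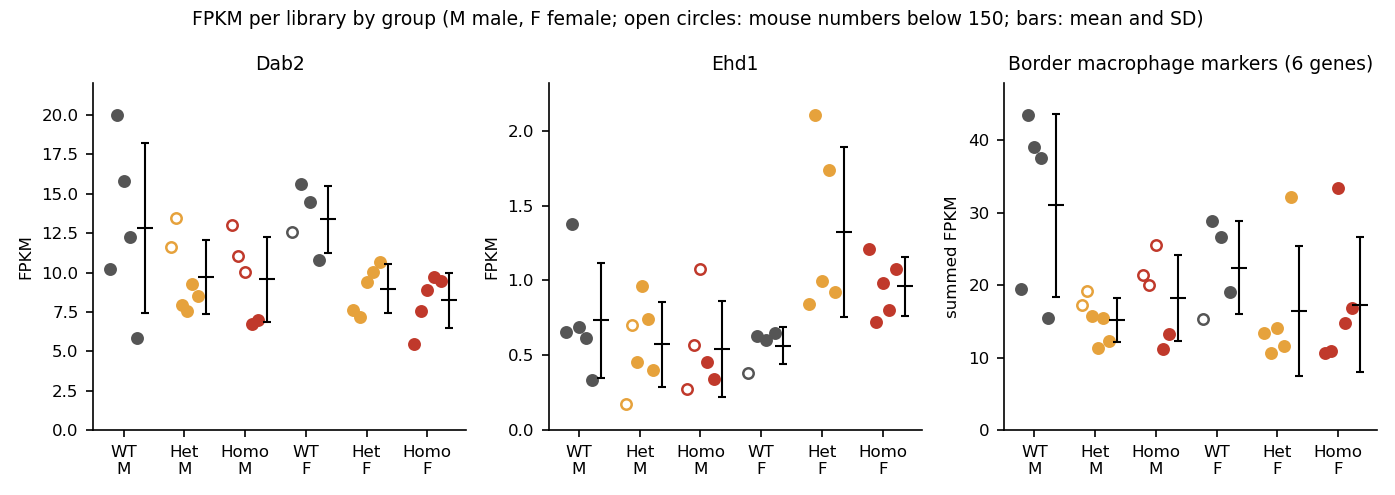
FPKM of Dab2 and Ehd1 and the summed FPKM of the 6 border macrophage markers in each library of the 6 groups (M male, F female), with open circles for mouse numbers below 150 and bars for the mean and SD. Female Het and Homo libraries lie below the female WT libraries for Dab2 (5.48 to 10.7 against 10.8 to 15.6) and above them for Ehd1 (0.722 to 2.11 against 0.382 to 0.647), while the marker sums of the female groups overlap.

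The other members with the smallest p in females overlapped between the groups. In Homo females, the AP-2 beta subunit Ap2b1 was at 14.3, 14.4, 15.3, 16.3 and 16.5 FPKM and at 16.3, 16.7, 18.9 and 19.0 in WT (-0.21, unadjusted p = 0.0691), and the scaffold Eps15 at 18.7, 18.8, 20.0, 20.4 and 22.1 and 22.1, 22.1, 23.1 and 24.3 (-0.20, unadjusted p = 0.0760). Limma gave both an adjusted p of 1. The phosphatase Synj2, which removes the lipid that holds the coat, was at 1.74, 2.001, 2.54 and 2.57 in WT and 2.13, 2.31, 3.14, 3.31 and 3.47 in Het females (0.35, unadjusted p = 0.0881, adjusted p = 1). In Het females, Ap2m1 was at 117, 118, 120.0, 133 and 142 (-0.11, 95% interval -0.26 to 0.04).

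Homo and Het mice were also compared directly. In males 0 of 42 members were called, beside 0% of all genes, and in females 0 of 42, beside 0.0118%. At an unadjusted p below 0.05, Ap2m1 and Fcho2 were the members found in males, 4.76% beside 3.85% of all genes, and Ap2b1 in females, 2.38% beside 2.06%. Every female Homo library was below every female Het library for Ap2b1 (14.3 to 16.5 against 17.1 to 19.1 FPKM, log2 difference -0.22, standard error 0.10, unadjusted p = 0.0418, adjusted p = 1 by limma), as for 0.237% of all genes. In males, Ap2b1 lay on the other side of WT, at 0.12 (95% interval -0.09 to 0.33).

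The interaction of sex and genotype, the male change minus the female change, asked whether males and females differed in their response. By limma with Benjamini-Hochberg adjustment, 0 members and 0% of all genes passed for Homo or Het mice. Unadjusted p was below 0.05 for 6 members in Homo, 14.3% beside 9.29% of all genes, and for 1 in Het mice, 2.38% beside 4.53%. The 6 were Rab4a (-0.94, standard error 0.38, unadjusted p = 0.0190, adjusted p = 0.5257), Ap2m1 (-0.23), Ap2b1 (0.33), Ap2s1 (-0.60), Ehd1 (-1.13) and Cltb (-0.51), with adjusted p of 0.534 or less. A difference between the sexes was therefore not shown for any member. Between female and male WT mice 0 of 42 members were called, beside 0.0473% of all genes. Fnbp1, an F-BAR protein, was the member without overlap before scaling (18.05 to 19.85 FPKM in females, 19.87 to 22.52 in males). This was a pattern in this direction of 0.586% of all genes. On the scaled log2 values Fnbp1 overlapped, with WT-F-0192 (4.37) above WT-M-0202 (4.31).

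Other genes of the pathway were read from lists settled beside the members. Of 36 further endocytosis genes, 33 were tested, and in male Homo mice 0 were called higher and 1 lower, with 28 of 33 estimates below 0 and a median of -0.19. The gene called was Hspa8, the chaperone that pulls clathrin coats apart together with Gak, whose mean and SD in males were 563 ± 74.0 FPKM for 5 WT, 365 ± 44.9 for 6 Het and 317 ± 28.1 for 5 Homo mice. Hspa8 fell by 0.91 on the log2 scale in Homo males (standard error 0.18, adjusted p = 0.00747 by limma with Benjamini-Hochberg adjustment), without overlap, and its difference in Het males was -0.70 (adjusted p = 0.0751). Gak, its partner, was not called. Of 35 further early endosome and recycling genes 32 were tested and 0 were called, with 21 estimates below 0 and a median of -0.12. Of 12 cargo receptors 10 were tested and 0 were called. In male Het, female Homo and female Het mice 0 genes of these 3 lists were called. The coat and adaptor gene Picalm had a male Homo difference of -0.29 (adjusted p = 0.199), the Rab5 exchange factor Rin3 -0.27 (adjusted p = 0.109) and the scaffold Cd2ap -0.15 (adjusted p = 0.455).

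The mouse number range, early (below 150) or late, was not spread evenly over the male groups, so it was compared within the male Het and Homo mice, 5 early and 6 late, with genotype as a term. Rab5a, Rab5b and Rab5c, their exchange factor Rin2, the EHD protein Ehd4 and the clathrin light chain Clta were lower in early numbered mice, and Dab2, Itsn2 and the Rab5 effector Rabep1 were higher. These 9 of 42 members, 21.4%, were called by limma with Benjamini-Hochberg adjustment, beside 14.6% of all genes. Of members 3 were higher, 7.14% beside 8.74% of all genes, and 6 lower, 14.3% beside 5.81%. The labels give no meaning to the numbers, and no date or batch was analysed here.

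Rab5c was at 4.35 and 4.53 FPKM in early Het and 4.88, 5.41 and 7.29 in early Homo mice, and between 6.88 and 11.8 (median 10.1) in the 6 late mice. All early libraries but 1 lay below all late libraries. The log2 difference was -1.06 (standard error 0.21, adjusted p = 0.0219). Rab5a was at 42.5 to 55.2 FPKM (median 46.6) in early and 48.8 to 68.2 (median 61.0) in late mice, a difference of -0.50 (standard error 0.12, adjusted p = 0.0282). Rab5b was at 24.8 to 28.4 FPKM (median 26.3) and 28.0 to 32.5 (median 30.0), a difference of -0.32 (standard error 0.08, adjusted p = 0.0296). The 3 Rab5 genes thus lay on the same side, with Rab5c the furthest.

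Rin2 was at 81.4 to 108.8 FPKM in early and 100.3 to 124 in late mice (log2 difference -0.44, adjusted p = 0.0310). Ehd4 was at 43.6 to 56.4 FPKM and 57.7 to 75.1, without overlap (-0.58, adjusted p = 0.0220), and Clta at 119.7 to 143 FPKM and 146 to 196.8, also without overlap (-0.40, adjusted p = 0.0347). In the other direction, Dab2 was at 10.1 to 13.5 FPKM in early and 6.72 to 9.25 in late mice, without overlap (0.50, adjusted p = 0.0226). Itsn2, a scaffold of the pit, was at 15.1 to 22.8 FPKM and 10.0 to 15.7 (0.51, adjusted p = 0.0295), and Rabep1 at 15.9 to 24.4 FPKM and 11.96 to 17.5 (0.43, adjusted p = 0.0305). Counting Hip1r (0.609 to 0.952 against 0.280 to 0.560 FPKM, not called), 4 members did not overlap between the ranges before scaling, 9.52% beside 5.72% of all genes. On the scaled log2 values that were tested, Clta and Dab2 stayed apart. Rab5b, which overlapped before scaling, came apart on these values (4.50 to 4.72 in early, 4.85 to 5.11 in late mice). Ehd4 then overlapped through Homo-M-0097 (early, 5.77) and Het-M-0203 (late, 5.72). Hip1r overlapped through Homo-M-0093 (early, -0.62) and Homo-M-0190 (late, -0.60).

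The libraries of early numbered mice also differed in other measures. Of the marker, lncRNA and depth ranges that follow, only those of the border macrophage markers did not overlap. The nuclear lncRNA sum was 8005 to 12870 FPKM in early and 2644 to 8119 in late mice, the border macrophage marker sum 17.2 to 25.6 and 11.1 to 15.7, the microglia marker sum 17390 to 23530 and 19950 to 25970, the monocyte marker sum 5.03 to 8.46 and 3.41 to 5.11, and relative depth 0.669 to 0.921 and 0.727 to 1.41. Medians of other marker sums were 67.02 FPKM in early and 4.72 in late mice for neutrophils, 14.2 and 2.85 for astrocytes, 15.0 and 6.01 for the choroid plexus and 84.6 and 70.8 for oligodendrocytes, with overlap, while those of neurons were 6.67 and 6.97. The part of these measures in the differences between the ranges was not tested. Ap2m1, Fcho2 and Rab4a, the genes called between male Homo and WT mice, had early against late differences of -0.06, 0.02 and -0.29 (adjusted p = 0.530, 0.889 and 0.405). Leaving out 1 library moved the count of members called from 9 to between 0 and 16, with 16 without Het-M-0203, 0 without Het-M-0100, Het-M-0108 or Homo-M-0189 and 2 to 5 without Homo-M-0093, Homo-M-0109, Het-M-0197, Het-M-0199, Het-M-0210 or Homo-M-0190. Rab5c and Ehd4 were called without each of the other 8 libraries. The difference of Rab5c lay between -1.21 and -0.99 and that of Ehd4 between -0.63 and -0.49 whichever library was left out.

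**Figure D5:**
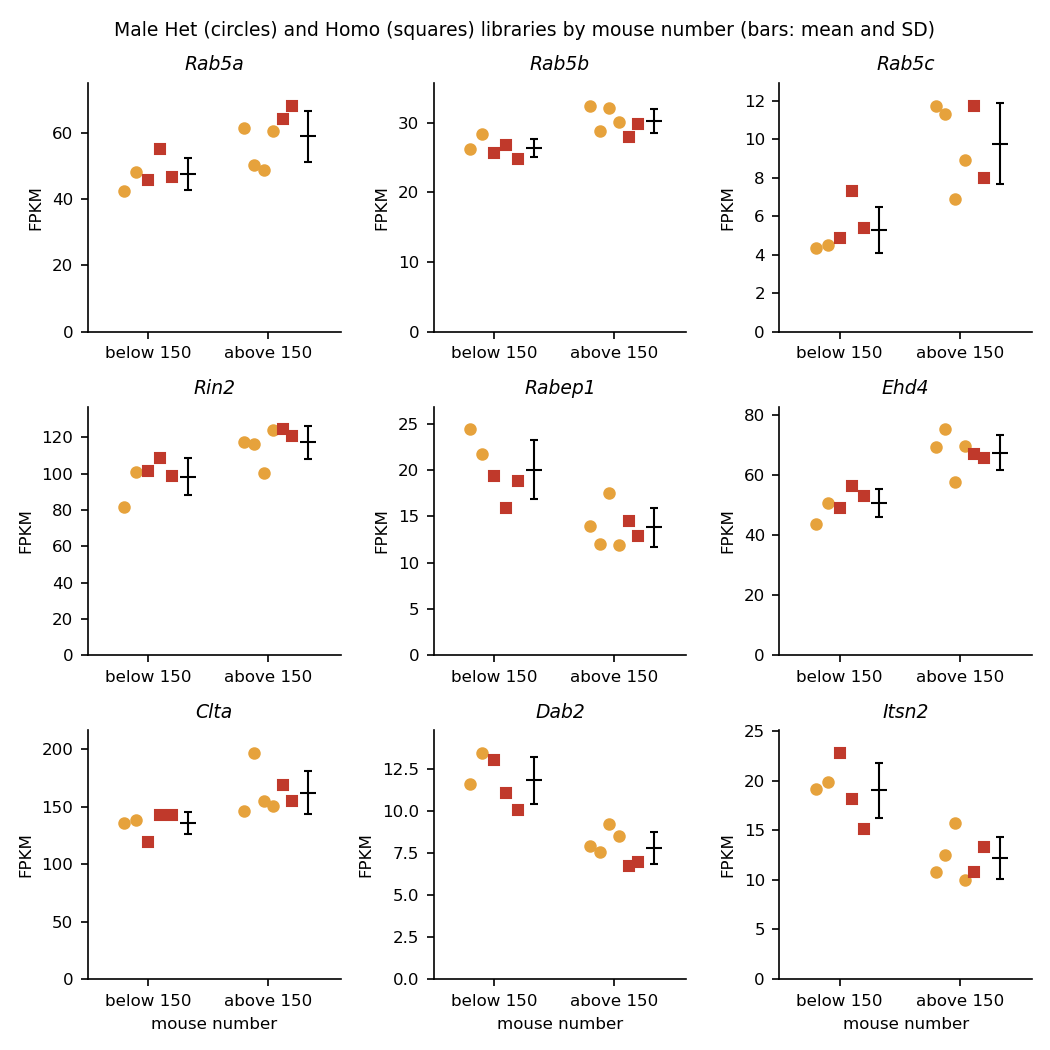
FPKM of the 9 members called between mouse numbers below and above 150 in male Het (circles) and Homo (squares) libraries, with bars for the mean and SD of each range. Rab5a, Rab5b, Rab5c, Rin2, Ehd4 and Clta are lower in early numbered mice, and Rabep1, Dab2 and Itsn2 are higher. In these unscaled values Ehd4, Clta and Dab2 do not overlap. After scaling Ehd4 overlaps and Rab5b does not.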

How the data were processed

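Microglia were isolated by FACS from mice of 3 months and their RNA was sequenced from SMARTer and Nextera XT libraries, per the methods of the study. The filed protocol instead speaks of cultures and TruSeq libraries, and which holds was not tested. The authors used OSA4 with mm10 and RSEM and deposited FPKM, which keep no read totals. Absolute depth is therefore unknown, and no counting error is given. Relative depth was read from the steps between values of low genes. Groups follow the labels, and 6 further columns that match no listed sample were not used.

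Scaling took the median of ratios over genes with at least 1 FPKM on average. Overlap between groups was read from FPKM before scaling. Log2(FPKM + 0.1) of the 16897 genes averaging at least 0.1 FPKM were fitted with limma 3.58.1 (R 4.3.3, trend, 6 group means), with Benjamini-Hochberg adjustment over all of them. The scale understates changes of low genes. The script was tested on simulated data. The 42 genes, their roles, the other lists and the rule for named genes were chosen with earlier results of these data known. By that rule, values are given for members called in any comparison with WT, for the 8 with the smallest p in male Homo mice and the 4 with the smallest p in each other comparison with WT, and for the highest member of each role. Bin1, Cx3cr1, Hspa8, Picalm, Cd2ap, Rin3 and any gene of the other lists that was called stand beside them. Fnbp1, Hip1r, the further genes in the account of levels and those called between number ranges were named after their values were seen. Counting is taken as without strand, and exons of 14 of the 42 members overlap another gene (GENCODE M21), among them Ap2a2, Ap2b1, Dab2, Dnm2, Gak, Hip1r, Itsn2, Rab5a, Rabep1 and Synj2, whose values may hold reads of both. Exactly 0 pairs of libraries held identical values. Alternatives changed the pseudocount, the filter, the scaling, the weights, the groups fitted, the number range and the libraries kept. DESeq2, which the study used, needs counts and was not run.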

Additional observations from a re-analysis of the deposited data

Results flagged for a closer look

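In groups of 4 to 6 libraries, the gap between the highest or lowest library and its neighbour was set against the range of the group, by Dixon's 95% critical value. This used FPKM before scaling and was not repeated on the scaled log2 values. Of 252 combinations of member and group, 8 passed, in 7 members, where chance flags about 1 in 20. Among the clathrin light chains, the library Het-M-0199, which has Bin1 at the Homo level, was the highest of the male Het group for Clta, at 196.8 FPKM with the next at 155, and for Cltb, at 21.5 FPKM with the next at 14.2. Epn1 was lowest in Homo-F-0238 among female Homo libraries, at 19.1 FPKM beside 22.8 in the next. Epn2, the second epsin, was lowest in WT-F-0122 among female WT libraries, at 8.34 FPKM beside 9.00, and this is the female WT mouse with an early number. Gak was highest in Het-F-0220, at 45.6 FPKM beside 40.8. The Rab5 effector Eea1 was highest in WT-F-0200 among female WT libraries, at 2.77 FPKM beside 1.93, and in Het-F-0257 among female Het libraries, at 2.91 FPKM beside 2.31. Het-F-0257 was also the highest female Het library for Rabgef1, a Rab5 exchange factor, at 13.7 FPKM beside 9.70. Without Het-M-0199, Clta was not called between the number ranges (adjusted p = 0.0509 by limma with Benjamini-Hochberg adjustment).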

How the results depend on the processing

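The count of 3 members called between male Homo and WT mice was 1 with a pseudocount of 0.01, without a filter on low values, without scaling, or with the 1.5-fold threshold added, and 0 once the number range entered as a covariate, in late numbered mice alone (2 Homo libraries) or in a fit of only the 2 groups. Ap2m1 was the gene left with a pseudocount of 0.01 or without a filter, Fcho2 without scaling and Rab4a with the 1.5-fold threshold. The count was 2 to 4 under the other alternatives, and 0 to 4 when 1 library was left out. It was 0 without WT-M-0176, WT-M-0177, Homo-M-0093, Homo-M-0097 or Homo-M-0109 and 1 without WT-M-0178 or WT-M-0258. Ap2m1, Fcho2 and Rab4a kept their directions under all of these, between -0.30 and -0.20, 0.27 and 0.42, and -1.22 and -0.64. The median of the members was -0.15, and it was -0.07 without scaling (all genes 0.11) and -0.04 once the covariate was included. The count in male Het mice was 0 to 1 when 1 library was left out. In the other comparisons of genotype or sex the count stayed 0. The 9 members called between number ranges were 0 without a filter, where 121 genes were called in all, 16 with array weights, and 0 to 16 when 1 library was left out. Without scaling, the median early against late difference of all genes moved from 0.10 to 0.23, and Clta and Rab5b were not called. These alternatives to the number range comparison, and leaving out Het-M-0199 and Het-F-0206, were chosen after seeing the data. Of 1486 values of single genes under alternatives, 1442 kept their direction and side of the threshold or moved by less than the spread. A call was lost by 36 and gained by 4, while 4 moved further and 0 called values reversed. Most of the 1486 belong to genes not called at the outset, which had no call to lose. For Ap2m1 the call was lost in 6 of 10 fits without 1 library and 4 of 11 other settings. The same counts were 7 of 10 and 5 of 11 for Fcho2, and 7 of 10 and 7 of 11 for Rab4a. The causes were not tested. No paired analysis was possible because the groups share no mouse numbers. Depth limits the 6 members with a mean under 1 FPKM.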

Other observations

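Within-family shares were not part of the comparisons, and the following were chosen after their values were seen and have no test. In males, Hip1 made up 74.4% ± 5.64 of Hip1 and Hip1r in the 5 WT libraries, 57.2% ± 10.6 in the 6 Het libraries and 50.1% ± 9.34 in the 5 Homo libraries (mean and SD), with both genes at or under 1.30 FPKM. In the 4 female WT libraries the Hip1 share was 56.5% ± 13.8. Trip10 made up 15.4% ± 1.85 of Fnbp1 and Trip10 in the male WT libraries and 11.7% ± 1.12 in the male Homo libraries. Clta lay between 88.2% and 93.2% of the clathrin light chains in all 30 libraries.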
